A study of Mus musculus with 4 samples.

Results

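The genes of transforming growth factor beta (TGF-beta) signaling at the lesion were followed across 4 groups of injured mice. The group consisted of 10 genes chosen by symbol from the 14718 symbols of the deposited table: the ligands Tgfb1, Tgfb2, Tgfb3 and Inhba, the matrix-bound protein Ltbp2, the receptors Tgfbr1 and Tgfbr2, the signal transducers Smad3 and Smad7, and the target gene Tgfbi. The table gives them in capitals, as TGFB1, TGFB2, TGFB3, INHBA, LTBP2, TGFBR1, TGFBR2, SMAD3, SMAD7 and TGFBI. All 10 were listed at 7 days post injury (dpi) and 8 were listed at 21 dpi, where Tgfb3 and Ltbp2 had no row. RNA came from segments of about 4 mm of spinal cord with the lesion site, taken at 7 or 21 dpi from male targeted replacement mice of the ApoE3 or the ApoE4 genotype. In these mice the human ApoE3 or ApoE4 coding region stands in place of the mouse gene, so all 4 groups lack mouse ApoE. Every group received a contusion of 50 kdyne at thoracic vertebra 9 at 3 to 5 months of age, and no sham-operated or uninjured group was analysed here.

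The methods give 3 mice per genotype and time point, but the mice of a group are combined into 1 deposited value per gene. The spread between mice is therefore unknown, the differences given here have no replicate check, and no test was run. The values are FPKM, fragments scaled to the length of the transcript and to the size of the library. They can be compared between genes but hold no read numbers, so the depth behind each gene is unknown. Each log2 ratio is log2((FPKM ApoE3 + 1)/(FPKM ApoE4 + 1)). A positive value is higher in ApoE3, a gene counts as past the fold change when the ratio is at least 1.3 in either direction, and the scale understates differences of genes with low values. The rows of the table name the comparison as ApoE3 versus ApoE4 and give the ratio of the values in that order, which is the reading used here. The numbering of the columns would pair the values with the opposite genotypes, and every direction between genotypes would then be reversed. The paper's RNA-seq directions between genotypes, which come from the same comparisons, follow the reading used here.

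TGF-beta ligands are secreted as latent complexes, held in the matrix by latent TGF-beta binding proteins and released by integrins and other activators. Active ligand brings the type II receptor Tgfbr2 together with the type I receptor Tgfbr1, which phosphorylates Smad2 and Smad3, and these enter the nucleus with Smad4 to drive genes of matrix and scar. Smad7 is induced by the pathway and limits it. In the injured cord, TGF-beta is known for its part in the formation of glial and fibrotic scars and in the state of microglia and macrophages.

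Markers of spinal cord were abundant in every group. Of 10 neuron markers all were listed at 7 dpi and 8 at 21 dpi, with Snap25 at 3366 FPKM in ApoE3 and 2545 FPKM in ApoE4 at 7 dpi, and at 5336 and 7812 FPKM at 21 dpi. The astrocyte marker Gfap had 12395 FPKM in ApoE3 and 12386 FPKM in ApoE4 at 7 dpi, and 8201 and 15313 FPKM at 21 dpi. The oligodendrocyte gene Mbp was the most abundant of its list in each group. A gene without a row at a time point was not necessarily low, since the myelin gene Cnp, chosen after its values were seen, had no row at 7 dpi and had 2055 FPKM in ApoE3 at 21 dpi. The microglia markers Cx3cr1 and P2ry12 had no row at either time.

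The scale of the table differed between the genotypes at 21 dpi. The log2 ratio of FPKM summed over all rows was -0.00017 at 7 dpi and -0.44 at 21 dpi. Among genes whose mean FPKM was 1 or more, the median log2 ratio was 0.0018 at 7 dpi and -0.42 at 21 dpi, where 93.8% of all rows had the lower value in ApoE3. Ratios are therefore given as deposited and after this median was subtracted, which is called the relative log2 ratio. In bulk tissue, fewer cells of a type and less RNA per cell cannot be told apart.

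At 7 dpi the receptors were the most abundant genes of the group, and all ligands came after the receptors, Smad7 and Tgfbi. In ApoE3 the levels were, from high to low, 87.2 FPKM for Tgfbr1, 67.3 for Tgfbr2, 46.3 for Smad7, 30.9 for Tgfbi, 23.6 for Tgfb2, 23.3 for Smad3, 20.2 for Tgfb1, 17.7 for Inhba, 15.3 for Tgfb3 and 11.0 for Ltbp2. The order in ApoE4 was the same for the 4 most abundant genes, whereas Tgfb1 came before Tgfb2 and Smad3, Ltbp2 before Tgfb3, and Inhba was last. At 21 dpi the order was identical in both genotypes, with Smad7 on top, followed by Tgfbr1, Tgfb2, Tgfbr2, Smad3, Tgfbi, Tgfb1 and Inhba. Neighbours such as Tgfb2 and Smad3 at 7 dpi, or Tgfbi and Tgfb1 at 10.4 FPKM each in ApoE4 at 21 dpi, had levels too close to be ordered without a measure of their spread.

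**Figure D1:**
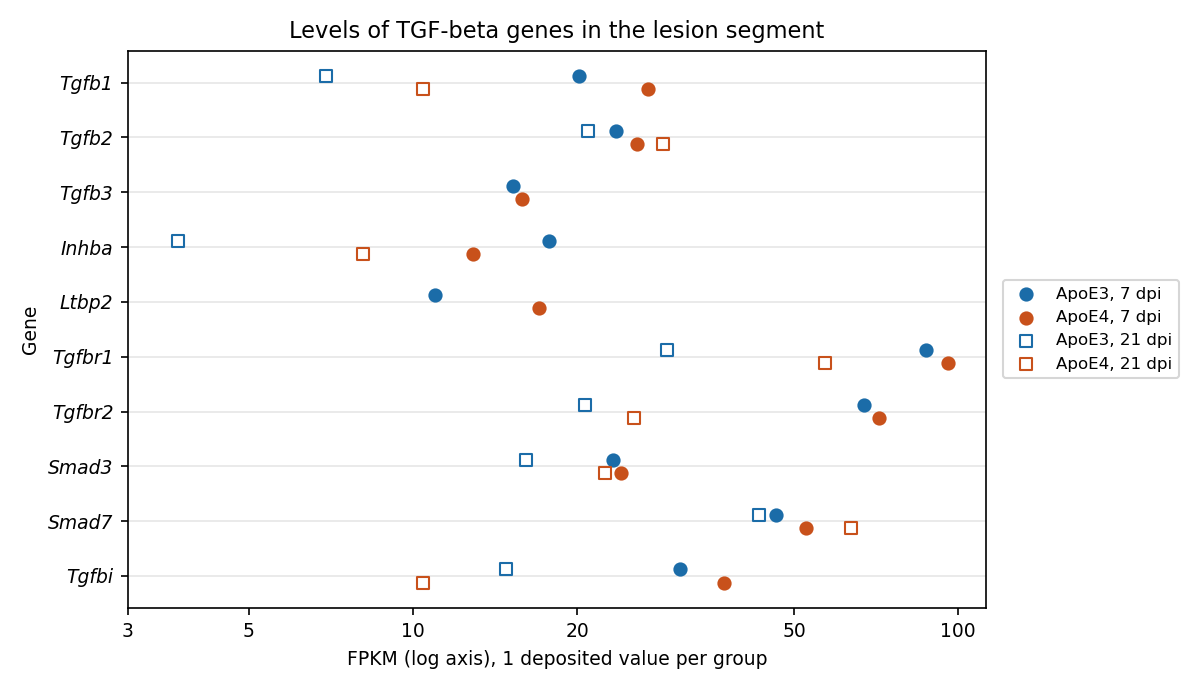
FPKM of each of the 10 genes on a log axis, with 1 deposited value per group (blue for ApoE3, orange for ApoE4, filled circles for 7 dpi, open squares for 21 dpi). The receptors stand highest at 7 dpi, and Tgfb1, Inhba, Tgfbr1, Tgfbr2 and Tgfbi lie further left at 21 dpi in both genotypes.

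At 7 dpi, 9 of the 10 genes were lower in ApoE3, compared to 49.5% of all genes, and their median log2 ratio was -0.12. Past the fold change were Tgfb1 and Ltbp2 with lower values in ApoE3 and Inhba with a higher value, that is 2 and 1 of 10, whereas 4.76% of all genes were lower and 3.78% were higher. The same 3 genes were past it by the relative log2 ratio, by which 4.82% of all genes were lower and 3.76% were higher. At 21 dpi, 6 of the 8 listed genes were past the fold change with lower values in ApoE3, compared to 58.9% of all genes, and 1 gene was higher, compared to 2.02%. By the relative log2 ratio, Inhba and Tgfbr1 were past the fold change on the lower side and Tgfbi on the higher side, that is 2 and 1 of 8, where 8.07% of all genes were lower and 7.47% were higher. With both genotypes scaled to equal totals, a choice made after the values were seen, the counts were again 2 and 1, beside 9.24% and 6.56% of all genes.

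**Figure D2:**
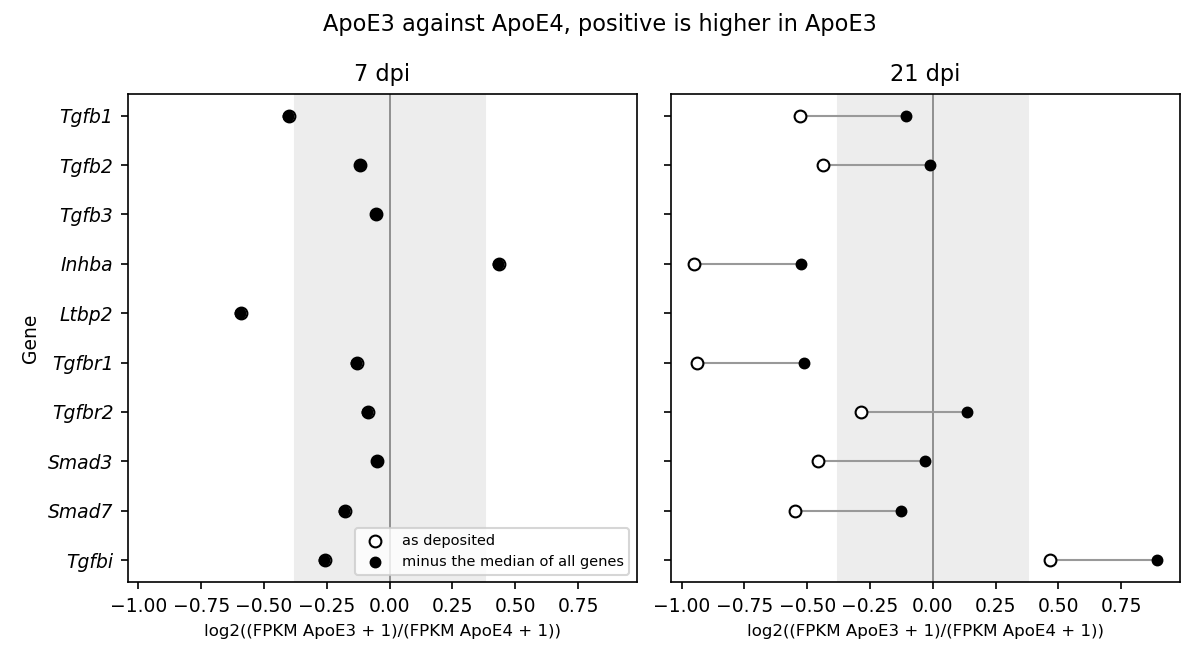
Log2 ratio of ApoE3 to ApoE4 for each gene at 7 dpi and at 21 dpi, as deposited (open circles) and relative to the median of the comparison (filled circles), with the grey band marking a fold change under 1.3. At 7 dpi both measures coincide and 3 genes lie outside the band, and at 21 dpi Inhba, Tgfbr1 and Tgfbi lie outside it by both measures.

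Tgfb1, the ligand best known for fibrosis and immune control, had 20.2 FPKM in ApoE3 mice and 27.0 in ApoE4 mice at 7 dpi, and 6.92 and 10.4 FPKM at 21 dpi. It was lower in ApoE3 at both times as deposited. The log2 ratio was -0.40 at 7 dpi, a fold of 1.32 that lies just past the limit of 1.3, and -0.53 at 21 dpi, where the relative log2 ratio was -0.11. Tgfb2, which in the nervous system is expressed by neurons and glia, had 23.6 and 25.7 FPKM at 7 dpi and 21.0 and 28.7 FPKM at 21 dpi in ApoE3 and ApoE4, respectively. Its relative log2 ratio was -0.12 at 7 dpi and -0.012 at 21 dpi, so at each time the genotypes differed by less than the fold change once the shift was taken into account. Tgfb3 had 15.3 FPKM in ApoE3 mice and 15.9 in ApoE4 mice at 7 dpi, a log2 ratio of -0.053, the smallest difference among the 4 ligands at that time.

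The balance of Tgfb1 and Tgfb2 within a group does not depend on the scale of that group. At 7 dpi Tgfb1 had 0.855 times the FPKM of Tgfb2 in ApoE3 and 1.05 times in ApoE4. At 21 dpi it had 0.330 times the FPKM of Tgfb2 in ApoE3 and 0.363 times in ApoE4. Tgfb1 thus made up 46.1% and 51.2% of the sum of both ligands at 7 dpi, and 24.8% and 26.6% at 21 dpi, in ApoE3 and ApoE4. The share differed more between the time points than between the genotypes.

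Inhba, which encodes a subunit that forms activin A, a ligand that also signals through Smad2 and Smad3, was 1 of 2 members, with Tgfbi, that differed between genotypes in opposite directions at the 2 times as deposited. It had 17.7 FPKM in ApoE3 mice and 12.9 in ApoE4 mice at 7 dpi, and 3.70 and 8.09 FPKM at 21 dpi. ApoE3 was thus the higher group at 7 dpi and the lower at 21 dpi. The log2 ratio was 0.43 at 7 dpi and -0.95 at 21 dpi, and the relative log2 ratio at 21 dpi was -0.53. Compared to Tgfb1 in the same group, Inhba had 0.878 times its FPKM in ApoE3 and 0.477 times in ApoE4 at 7 dpi, and 0.535 and 0.776 times at 21 dpi, so the order of the genotypes was reversed on this measure as well.

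Ltbp2, a matrix protein that binds fibrillin and, unlike its relatives, does not bind latent TGF-beta, had 11.0 FPKM in ApoE3 mice and 17.0 in ApoE4 mice at 7 dpi. Its log2 ratio of -0.59 was the lowest of the 10 genes at that time.

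The sequences before the start sites of Tgfb1 and Ltbp2, which were past the fold change in the same direction at 7 dpi, are shown with those of Inhba, which was past it in the other direction, and of Tgfbi, the target gene of the group. Each is the 250 bases before the start, 5′ to 3′ in the direction of the gene, from the RefSeq annotation of GRCm38.p6. Of the 10 genes, 8 had a window in that table, with 9 windows in all, and Tgfb3 and Smad7 had none. Capitals mark CAGAC, the core of a Smad binding element, and GGGCGG, the GC box bound by Sp1, on either strand, where they do not overlap in these windows. The windows are chr7:25686752-25687001 on the plus strand for Tgfb1, chr12:84876492-84876741 on the minus strand for Ltbp2, chr13:16011601-16011850 on the plus strand for Inhba and chr13:56609336-56609585 on the plus strand for Tgfbi.
Tgfb1: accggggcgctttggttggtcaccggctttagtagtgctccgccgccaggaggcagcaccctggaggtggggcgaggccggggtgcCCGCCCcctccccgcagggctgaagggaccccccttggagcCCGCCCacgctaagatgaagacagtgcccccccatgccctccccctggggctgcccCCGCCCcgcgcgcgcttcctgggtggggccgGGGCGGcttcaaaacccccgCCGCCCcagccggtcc
Ltbp2: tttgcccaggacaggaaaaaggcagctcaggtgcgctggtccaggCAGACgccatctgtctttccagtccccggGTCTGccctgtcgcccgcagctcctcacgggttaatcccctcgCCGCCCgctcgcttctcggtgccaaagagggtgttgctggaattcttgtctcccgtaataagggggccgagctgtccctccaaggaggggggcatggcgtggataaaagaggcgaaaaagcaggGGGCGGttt
Inhba: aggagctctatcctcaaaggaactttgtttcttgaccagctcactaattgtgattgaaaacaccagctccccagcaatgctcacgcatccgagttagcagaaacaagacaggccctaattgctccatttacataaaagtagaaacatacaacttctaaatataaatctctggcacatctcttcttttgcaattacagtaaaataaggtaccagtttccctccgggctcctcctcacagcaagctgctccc
Tgfbi: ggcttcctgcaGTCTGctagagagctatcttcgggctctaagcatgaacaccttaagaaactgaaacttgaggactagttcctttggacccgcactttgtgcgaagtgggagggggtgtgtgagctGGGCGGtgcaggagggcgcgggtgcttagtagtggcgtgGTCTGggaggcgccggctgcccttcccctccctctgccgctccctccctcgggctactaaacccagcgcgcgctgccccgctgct
The window of Tgfb1 held 5 GC boxes and no CAGAC, that of Ltbp2 held 2 of each, that of Tgfbi held 2 CAGAC and 1 GC box, and that of Inhba held neither. Of the 9 windows, 5 held CAGAC and 5 held GGGCGG. Of all 32851 windows of this length in the table, 42.2% held CAGAC and 32.7% held GGGCGG. The AP-1 motif TGANTCA was in 6.75% of all windows and in none of the 9. The share of G and C was 75.2% for Tgfb1, 61.6% for Ltbp2, 43.2% for Inhba and 62.4% for Tgfbi. Tgfb1 and Ltbp2 thus both had GC boxes in these windows, and of the pair Ltbp2 alone had CAGAC. A match of letters is not a measured site.

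The receptors were close between genotypes at 7 dpi and only Tgfbr1 was past the fold change by the relative log2 ratio at 21 dpi. Tgfbr1, the type I receptor kinase, had 87.2 FPKM in ApoE3 mice and 95.7 in ApoE4 mice at 7 dpi, and 29.3 and 56.9 FPKM at 21 dpi. Its log2 ratio was -0.13 at 7 dpi and -0.94 at 21 dpi, with a relative log2 ratio of -0.51 at 21 dpi. Tgfbr2, the type II receptor that binds the ligand, had 67.3 and 71.6 FPKM at 7 dpi and 20.7 and 25.5 FPKM at 21 dpi in ApoE3 and ApoE4. Its log2 ratio at 21 dpi was -0.29, and the relative log2 ratio was 0.14. Within each group Tgfbr1 had 1.297 times the FPKM of Tgfbr2 in ApoE3 and 1.34 times in ApoE4 at 7 dpi, and 1.41 and 2.23 times at 21 dpi, so the ApoE4 group at 21 dpi had the highest ratio of the type I to the type II receptor.

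Smad3, the transducer of TGF-beta and activin signals, had 23.3 FPKM in ApoE3 mice and 24.1 in ApoE4 mice at 7 dpi, and 16.1 and 22.5 FPKM at 21 dpi. Smad7, the inhibitory Smad, had 46.3 and 52.5 FPKM at 7 dpi, and 43.2 and 63.7 FPKM at 21 dpi. As deposited, both were past the fold change at 21 dpi, with log2 ratios of -0.46 and -0.55. Relative to all genes, the log2 ratios were -0.033 for Smad3 and -0.13 for Smad7. The ratio of Smad7 to Smad3 FPKM was 1.99 in ApoE3 and 2.18 in ApoE4 at 7 dpi, and 2.68 and 2.84 at 21 dpi.

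Tgfbi, a secreted matrix protein that takes its name from its induction by TGF-beta, had 30.9 FPKM in ApoE3 mice and 37.2 in ApoE4 mice at 7 dpi, and 14.8 and 10.4 FPKM at 21 dpi. It was the only 1 of the 8 genes listed at 21 dpi with a higher value in ApoE3 as deposited. Its log2 ratio was -0.26 at 7 dpi and 0.47 at 21 dpi, with a relative log2 ratio of 0.89 at 21 dpi. Per unit of Tgfb1, Tgfbi was 1.53 in ApoE3 and 1.38 in ApoE4 at 7 dpi, and 2.14 and 1.0009 at 21 dpi.

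The rest of the pathway was described with 7 lists of 98 symbols that include the 10 genes. At 7 dpi, 85 were listed, of which 20 were past the fold change with lower values in ApoE3 and 2 with higher values, compared to 4.76% and 3.78% of all genes. Without the 10 genes, 18 of 75 were past it on the lower side and 1 on the higher side. Of the 20, 12 were in the list of target genes and 5 in the list of latency and activation, while the Smads and the BMP target genes held none past the fold change in either direction.

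Target genes of TGF-beta, most of them genes of matrix and contractile cells, were lower in ApoE3 at 7 dpi. The list has 22 symbols, of which Ctgf and Ccn2 are the older and newer names of 1 gene, and 18 were listed. All 18 were lower in ApoE3, compared to 49.5% of all genes, and 12 of them were past the fold change, compared to 4.76%. Their median log2 ratio was -0.44, beside 0.0018 for all genes. Without Tgfbi, the count was 12 of 17. Postn (periostin, a matrix protein of the fibrotic scar) had 119 FPKM in ApoE3 mice and 199.97 in ApoE4 mice, and Tnc (tenascin C) had 55.2 and 96.6. Cthrc1, a secreted protein of activated fibroblasts, had 48.1 and 74.9 FPKM, and Lox, which cross-links collagen, had 14.8 and 22.4. Ccn2, a matricellular protein often read as an output of TGF-beta, had 4.46 FPKM in ApoE3 mice and 6.92 in ApoE4 mice. Cdkn2b, an inhibitor of the cell cycle, had 1.88 and 3.40 FPKM.

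Genes of latency and activation came next. Of 15, 14 were listed at 7 dpi, 5 were past the fold change with lower values in ApoE3, compared to 4.76% of all genes, and none with a higher value, with a median log2 ratio of -0.28. Thbs1, an activator of latent TGF-beta, had 15.7 FPKM in ApoE3 mice and 32.9 in ApoE4 mice, a log2 ratio of -1.02. Nrros, which anchors latent TGF-beta on microglia and macrophages, had 169.8 and 239 FPKM, and Itgb5, an integrin subunit, had 466 and 648 FPKM. Fbn2, a fibrillin and chosen after its values were seen, had 5.32 and 7.63 FPKM. With Ltbp2, which is in the list although it does not bind latent TGF-beta, these were the 5. Ltbp3, the most abundant of the latent TGF-beta binding proteins listed, had 450.01 FPKM in ApoE3 mice and 515 in ApoE4 mice, and its log2 ratio of -0.19 was under the fold change.

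At 7 dpi the other lists had medians closer to that of all genes than the target genes and the genes of latency and activation had. Of 14 listed ligands, 9 were lower in ApoE3, 2 of them past the fold change, and 5 were higher, 1 of them past it, with a median log2 ratio of -0.051. Of all genes, 4.76% were past it on the lower side and 3.78% on the higher side. The stress-induced family member Gdf15 had 13.2 FPKM in ApoE3 mice and 27.6 in ApoE4 mice. Of 13 receptors and co-receptors, only Acvr1c was past the fold change, with 5.94 FPKM in ApoE3 mice and 3.42 in ApoE4 mice. Of 14 listed inhibitors and feedback genes, only Tgif1, a repressor of Smad targets, was past it, with 132.8 and 174.8 FPKM. The median log2 ratio was -0.050 for 8 Smads, and -0.19 for the 4 listed genes of the BMP target list, of which none was past the fold change.

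**Figure D3:**
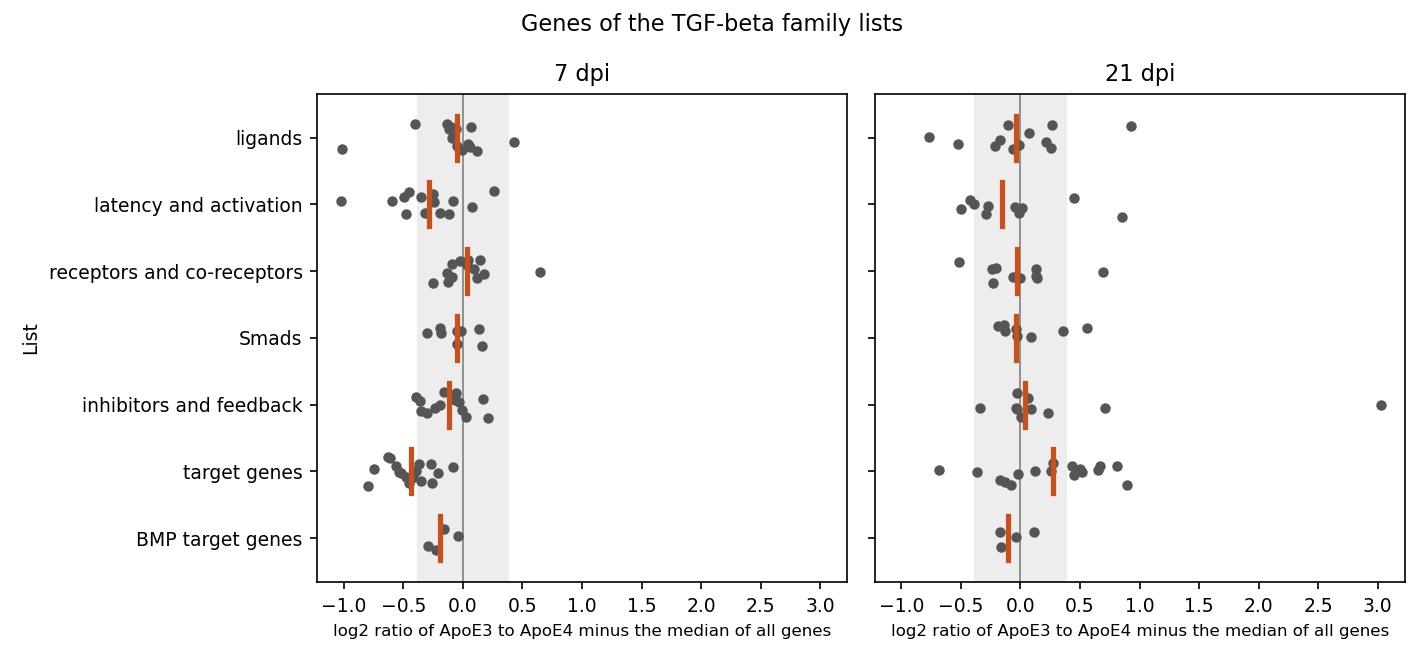
Relative log2 ratio of ApoE3 to ApoE4 for every listed gene of the 7 lists at 7 and 21 dpi (grey points), with the median of each list as an orange bar and a grey band for a fold change under 1.3. The bar of the target genes lies at -0.44 at 7 dpi and at 0.27 at 21 dpi, and the point at 3.02 is Dcn.

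Some markers of other cells differed between the genotypes at 7 dpi too. Of all genes, 4.76% were past the fold change with lower values in ApoE3 and 3.78% with higher values. Of 9 markers of microglia and macrophages, 7 were listed, 1 was past the fold change, and their sum was 6534 FPKM in ApoE3 mice and 8491 in ApoE4 mice. Most of this difference lay in Lyz2, the most abundant, with 4522 and 6076 FPKM, and in Cd68, with 1309 and 1696 FPKM, whereas Csf1r, with 196.8 and 182.5 FPKM, and Adgre1, with 110.96 and 109.6, were slightly higher in ApoE3. Cd68, Csf1r and Adgre1 were chosen after their values were seen. Of 8 markers of fibroblasts and pericytes, 7 had a row, each with the lower value in ApoE3 (median log2 ratio -0.17), with sums of 306 and 335 FPKM, led by Rgs5 with 108.5 and 109.2 FPKM, and 1 was past the fold change, Lum, chosen after its values were seen, with 8.94 and 13.02 FPKM. Of 5 platelet markers, 2 were listed, with sums of 15.1 and 24.5 FPKM, of which Pf4 had 12.4 and 21.1. The 10 neuron markers were higher in ApoE3, with sums of 5722 and 4502 FPKM. Of 10 neutrophil markers, 4 were listed, with sums of 505 and 601 FPKM that rest on Csf3r, with 485 and 589. The other 3 were higher in ApoE3, 2 of them past the fold change, and the median log2 ratio of the 4 was 0.44. The 6 endothelial markers, led by Flt1, had sums of 241.2 and 239.7 FPKM, and none was past the fold change. None of the 7 astrocyte markers, with sums of 17481 and 17060 FPKM, was past it. The same held for the 4 listed oligodendrocyte markers, with sums of 126709 and 133878 FPKM. Of the Schwann cell list, 3 of 6 were listed, led by Drp2, with sums of 119.7 and 138 FPKM, and of the skeletal muscle list 5 of 8, led by Tnnt3, with sums of 62.5 and 40.2 FPKM. No gene of the T cell, sensory ganglion and liver lists had a row. The part of these cells in the lower values of Tgfb1, Ltbp2 and the target genes was not tested.

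At 21 dpi, 71 symbols of the lists had a value. As deposited, 40 were past the fold change with lower values in ApoE3 and 5 with higher values, compared to 58.9% and 2.02% of all genes, and by the relative log2 ratio the counts were 7 and 15, compared to 8.07% and 7.47%. Neither count on the lower side thus sets the lists apart from all genes. Of 17 listed target genes, 6 were past the fold change on the lower side and 2 on the higher side as deposited, with a median log2 ratio of -0.15, and 1 and 8 were past it relative to all genes, with a median of 0.27. Among the 8 were Tgfbi and Ccn2, and, named after their values were seen, Col1a1, Col1a2, Col3a1, Acta2 and Cdkn1a. As deposited, Ccn2 had 8.51 FPKM in ApoE3 mice and 8.36 in ApoE4 mice, so that it was past the fold change only once the median was subtracted. The 1 gene past it on the lower side was Cdkn2b, with 1.56 and 4.53 FPKM.

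In the other lists, the largest difference at 21 dpi was that of Dcn (decorin, a proteoglycan that binds TGF-beta), with 61.9 FPKM in ApoE3 mice and 9.37 in ApoE4 mice, a log2 ratio of 2.60. Bmp7 had 4.37 and 2.78 FPKM, a relative log2 ratio of 0.93. On the lower side, Itgb8, whose integrin activates latent TGF-beta, had 4.97 FPKM in ApoE3 mice and 10.3 in ApoE4 mice, Itgb5 had 231 and 415 FPKM, and Itgav had 48.8 and 86.4 FPKM. Their relative log2 ratios were -0.50, -0.42 and -0.39. Lefty2, an antagonist in the family, had 0.304 and 1.98 FPKM. By list and relative to all genes, 2 of 12 ligands, 3 of 10 genes of latency and activation and 1 of 10 receptors were lower past the fold change, and no Smad, inhibitor or BMP target gene was. Of all genes, 8.07% were lower and 7.47% were higher by that measure. On the higher side were 1 ligand, 2 genes of latency and activation (Ltbp4 and Lrrc32), 1 receptor (Tgfbr3), 1 Smad (Smad6) and 2 inhibitors (Dcn and Fstl1), of which all but Bmp7 and Dcn were named after their values were seen. The median relative log2 ratio was -0.038 for ligands, -0.16 for latency and activation, -0.032 for receptors, -0.035 for Smads, 0.035 for inhibitors and -0.10 for BMP target genes.

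By the median of each list, markers of Schwann cells, sensory ganglion, skeletal muscle and liver differed more at 21 dpi than the pathway lists. Their median relative log2 ratios were 1.85, 2.75, -2.90 and -2.12, whereas those of the pathway lists lay between -0.16 and 0.27. Among single genes, Dcn, with a relative log2 ratio of 3.02, differed more than some of these markers. The shares of all genes past the fold change, with lower and with higher values in ApoE3, were 58.9% and 2.02% as deposited and 8.07% and 7.47% by the relative log2 ratio. Of 6 Schwann cell markers, 5 were listed, all 5 past the fold change with higher values in ApoE3 on both scales, and Drp2, chosen after its values were seen, had 294 and 109 FPKM. All 5 sensory ganglion markers were listed and higher in ApoE3, with sums of 67.1 and 1.44 FPKM, led by Avil with 39.1 and 1.20 FPKM, and the values of Mrgprd and Trpv1 in ApoE4 were 0. Of 8 skeletal muscle markers, 6 had a row, each with the lower value in ApoE3, with sums of 33.6 and 690.2 FPKM, led by Tnnt3 with 22.5 and 515 FPKM, and Myh4 was listed at 0 in ApoE3. Of 8 liver markers, 7 had a row, each with the lower value in ApoE3, with sums of 11.1 and 122 FPKM, led by Apoa2 with 5.38 and 59.2 FPKM, and Ambp was listed at 0 in ApoE3.

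Markers of the cells of the lesion differed less. Microglia and macrophage markers, of which 6 were listed, had sums of 523 FPKM in ApoE3 mice and 987 in ApoE4 mice, and 3 of the 6 were past the fold change with lower values in ApoE3 relative to all genes, compared to 8.07% of all genes. Lyz2 was the most abundant, with 212 and 426 FPKM. Fibroblast and pericyte markers, of which 7 were listed, had sums of 229 and 278 FPKM, led by Rgs5 with 86.8 and 108.6 FPKM. As deposited, 1 of the 7 was past the fold change with a higher value in ApoE3 and 2 with lower values, compared to 2.02% and 58.9% of all genes. Relative to all genes, 2 of the 7 were past it with higher values, compared to 7.47%, and none with a lower value, compared to 8.07%. These 2, named after their values were seen, were Vtn, with 57.5 and 57.1 FPKM, and Lum, with 1.44 and 0.675 FPKM. Neutrophil markers, of which 5 of 10 were listed, had sums of 293 and 439 FPKM, endothelial markers, 5 of 6, had 208 and 265, platelet markers, 2 of 5, had 7.497 and 9.77, and of the T cell list Cd3g alone had a row, with 0.468 and 1.302 FPKM. The 8 listed neuron markers, which at 7 dpi were higher in ApoE3, had sums of 7818 and 11662 FPKM, led by Snap25, and 5 of the 8 were past the fold change with lower values in ApoE3 as deposited and 2 relative to all genes, compared to 58.9% and 8.07%. The 7 astrocyte markers had sums of 10993 and 20093 FPKM, and 6 of 7 oligodendrocyte markers had 227687 and 320899. As deposited, all 7 astrocyte markers, 6 oligodendrocyte markers and 4 neutrophil markers were past the fold change with lower values in ApoE3. Relative to all genes, the counts were 2, 0 and 2. The part of any of these tissues and cells in the values of Tgfbi, Dcn, Inhba and Tgfbr1 at 21 dpi was not tested.

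**Figure D4:**
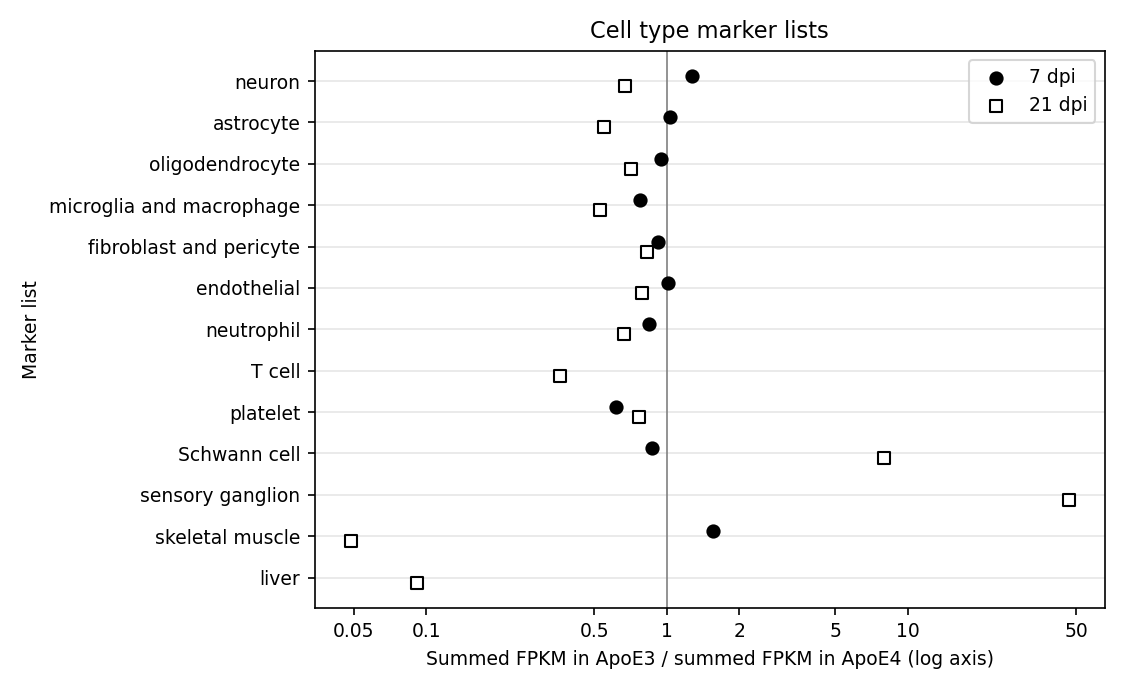
Ratio of summed FPKM in ApoE3 to summed FPKM in ApoE4, on a log axis, for the listed genes of each marker list at 7 dpi (filled circles) and 21 dpi (open squares). At 21 dpi the sensory ganglion list lies at 46.6, whereas the liver list lies at 0.0912 and the skeletal muscle list at 0.0487.

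The 2 time points were then set side by side within each genotype. These values come from separate comparisons of the authors, which may have been normalized apart, and the median log2 ratio of 21 to 7 dpi over the 10876 genes listed once at both times was 0.089 in ApoE3 and 0.53 in ApoE4, for genes whose mean FPKM was 1 or more. After this median was subtracted, all 8 genes were lower at 21 dpi in both genotypes, and 6 of 8 were past the fold change in ApoE3 and 6 of 8 in ApoE4, where 27.7% and 28.6% of all genes were lower by that measure. None was higher by that measure, compared to 26.6% and 26.1% of all genes. As deposited, 6 of 8 in ApoE3 and 5 of 8 in ApoE4 were past the fold change with lower values at 21 dpi, compared to 23.6% and 10.9% of all genes, and none was past it with a higher value, compared to 31.3% and 59%. With equal totals, 7 of 8 and 8 of 8 were past it on the lower side, beside 36.5% and 35.1% of all genes, and none on the higher side, beside 17.8% and 19.3%.

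Tgfb1, Inhba, both receptors and Tgfbi were the genes with much lower values at 21 dpi. As deposited, Tgfb1 had 2.92 times as many FPKM at 7 dpi as at 21 dpi in ApoE3 and 2.59 times in ApoE4, and for Tgfbr2 the ratios were 3.25 and 2.81. The order of the genotypes was the reverse by the relative log2 ratio of 21 to 7 dpi, with -1.51 in ApoE3 and -1.82 in ApoE4 for Tgfb1 and -1.74 and -1.98 for Tgfbr2. For Inhba the ratio of 7 to 21 dpi was 4.79 in ApoE3 and 1.59 in ApoE4, and for Tgfbr1 it was 2.98 and 1.68. For Tgfbi it was 2.09 in ApoE3 and 3.56 in ApoE4. Inhba and Tgfbr1 thus had the larger ratio in ApoE3, and Tgfbi in ApoE4, also after the median was subtracted, a difference between genotypes that could not be tested with 1 value per group. Tgfb2 and Smad7 differed by less than the fold change between the times in both genotypes, with relative log2 ratios of -0.25 and -0.19 in ApoE3 and -0.37 and -0.25 in ApoE4. In ApoE4 both were higher at 21 dpi as deposited, at 0.15 and 0.27, and with equal totals they were past the fold change on the lower side, at -0.53 and -0.42, as was Tgfb2 in ApoE3, at -0.43. Smad3 had relative log2 ratios of -0.59 in ApoE3 and -0.62 in ApoE4, and -0.50 and -0.10 as deposited.

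**Figure D5:**
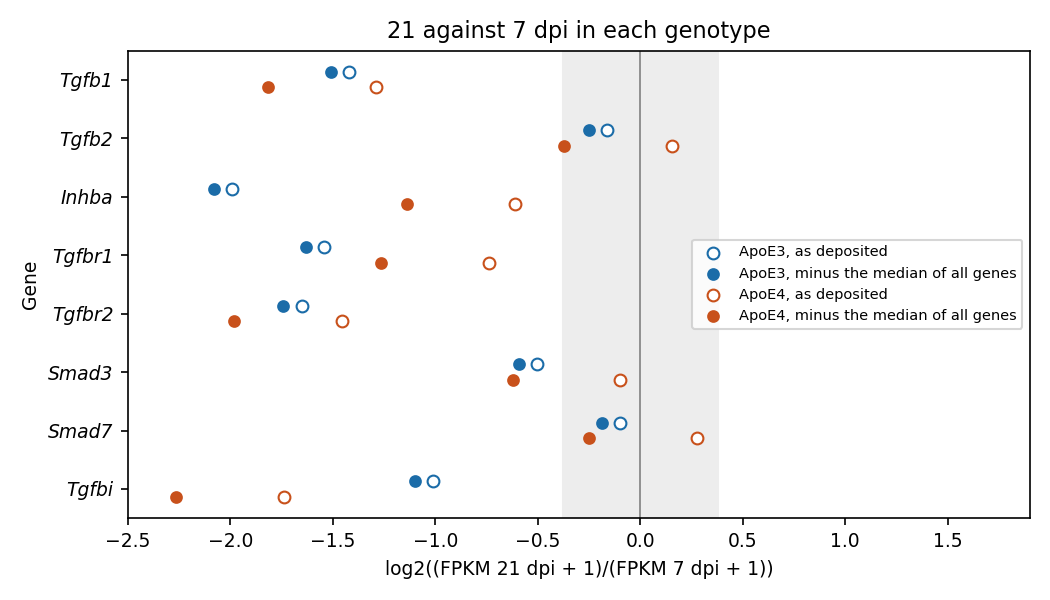
Log2 ratio of 21 to 7 dpi for the 8 genes listed at both times in ApoE3 (blue) and ApoE4 (orange), as deposited (open circles) and after the median was subtracted (filled circles), with a grey band for a fold change under 1.3. Tgfb2 and Smad7 are inside the band by both measures, and the other 6 genes are left of it once the median is subtracted.

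Target genes had lower values at 21 dpi as well. Of 16 listed at both times, 12 were past the fold change with lower values at 21 dpi in ApoE3 and 12 in ApoE4 as deposited, compared to 23.6% and 10.9% of all genes, with median log2 ratios of -1.07 and -1.60. After the median was subtracted the counts were 12 and 14, compared to 27.7% and 28.6%. On the higher side, Ccn2 alone was past the fold change, in ApoE3, with a log2 ratio of 0.80 as deposited and 0.71 after the median was subtracted. Col1a1, the chain of type I collagen that was lowest at 21 dpi compared to 7 dpi in ApoE3 and was named after its values were seen, had 212 FPKM at 7 dpi and 2.44 at 21 dpi in ApoE3, and 269.96 and 2.27 FPKM in ApoE4. Postn had 119 and 17.4 FPKM in ApoE3, and 199.97 and 26.1 in ApoE4. Of the 4 listed genes of the BMP target list, as deposited none was past the fold change with a lower value at 21 dpi and 2 in each genotype were past it with a higher value, compared to 31.3% of all genes in ApoE3 and 59% in ApoE4. After the median was subtracted, 1 in each genotype was past it on the higher side, and Id3 was past it on the lower side in ApoE4.

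Cell markers differed between the times along with these genes. Over all genes, 23.6% in ApoE3 and 10.9% in ApoE4 were past the fold change on the lower side as deposited and 31.3% and 59% on the higher side, and after the median was subtracted 27.7% and 28.6% were lower and 26.6% and 26.1% higher. All 6 microglia and macrophage markers listed at both times, of 9, were past the fold change with lower values at 21 dpi in ApoE3, and 4 of the 6 in ApoE4, where the count was 5 after the median was subtracted. Their sum was 5225 FPKM at 7 dpi and 523 at 21 dpi in ApoE3, and 6795 and 987 in ApoE4. The most abundant, Lyz2, had 21.4 times as many FPKM at 7 dpi as at 21 dpi in ApoE3 and 14.3 times in ApoE4. Neuron markers went the other way. Of 8 listed at both times, of 10, 6 in ApoE3 and all 8 in ApoE4 were past the fold change with higher values at 21 dpi, as deposited and after the median was subtracted. Their sum, led by Snap25, was 4825 FPKM at 7 dpi and 7818 at 21 dpi in ApoE3, and 3755 and 11662 in ApoE4. Fibroblast and pericyte markers were mostly lower at 21 dpi. Of 6 listed at both times, of 8, 3 in each genotype were past the fold change on the lower side as deposited, and 4 in ApoE3 and 5 in ApoE4 after the median was subtracted. Vtn, chosen after its values were seen, was past it on the higher side in both genotypes as deposited and in ApoE3 after the median was subtracted. The sum of the 6, led by Rgs5, was 298 FPKM at 7 dpi and 224 at 21 dpi in ApoE3, and 324 and 267 in ApoE4.

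Some of the other marker lists differed between the times in 1 genotype more than in the other, and some did not. The genotypes were not tested against each other. The 5 skeletal muscle markers listed at both times, led by Tnnt3, had sums of 62.5 FPKM at 7 dpi and 33.6 at 21 dpi in ApoE3, with 3 past the fold change on the lower side, and of 40.2 and 687 FPKM in ApoE4, with all 5 past it on the higher side, on both scales. Of 3 Schwann cell markers listed at both times, all 3 were past it on the higher side in ApoE3 on both scales, whereas in ApoE4 1 was past it on each side as deposited and 2 on the lower side after the median was subtracted. The 7 astrocyte markers, led by Gfap, had sums of 17481 FPKM at 7 dpi and 10993 at 21 dpi in ApoE3 and of 17060 and 20093 FPKM in ApoE4. Astrocyte markers were thus lower at 21 dpi mostly in ApoE3, where 4 were past the fold change on the lower side and 1 on the higher side on both scales, while in ApoE4 the counts were 1 and 3 as deposited and 2 and 1 after the median was subtracted. Of 4 neutrophil markers, led by Csf3r, with sums of 505 and 292 FPKM in ApoE3 and of 601 and 437 in ApoE4, 3 were past it on the lower side in ApoE3 on both scales, and in ApoE4 1 was past it on the lower side and 2 on the higher side as deposited, and 2 and 1 after the median was subtracted. The 4 oligodendrocyte markers listed at both times, led by Mbp, were all higher at 21 dpi as deposited, 2 of them past the fold change in ApoE3 and 4 in ApoE4, and 2 in each genotype after the median was subtracted. Of 5 endothelial markers, 2 in each genotype were past it on the lower side on both scales, and 3 in ApoE4 on the higher side as deposited only. Of 2 platelet markers, 1 was past it on each side in both genotypes on both scales. The part of any of these cells and tissues in the lower values of the 8 genes and of the target genes at 21 dpi was not tested.

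Over the 4 groups, the genes whose pattern of log2(FPKM + 1) around its own mean was closest to that of Tgfb1 were Ncf1, Asf1b and Sox4, at Euclidean distances of 0.0573, 0.0923 and 0.0964, among 10860 genes. Ncf1, a subunit of the NADPH oxidase of phagocytes, had 136.97 and 177 FPKM at 7 dpi and 52.3 and 72.9 FPKM at 21 dpi in ApoE3 and ApoE4. With 4 values per gene, many genes can lie this close.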

How the data were processed

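RNA-seq was made from total RNA of lesion segments with the TruSeq RNA Sample Prep Kit v2. The authors down-sampled all libraries to the smallest before alignment with STAR 2.5.4b and, per the submitters' processing notes, used Cuffdiff 1.3.0. The methods report that 1 replicate had a lower share of aligned reads than all others, and do not name its group. The genome build and annotation are not given in the sources used here. The authors deposited FPKM plus 1 per gene and group, combining the replicate mice, and 1 was subtracted. Columns with the authors' p-values, q-values and fold changes, and their list of differentially expressed genes, were not used.

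Log2 ratios used a pseudocount of 1 FPKM, and a gene counted as past the fold change at 1.3 or more, the minimum that the methods state. For relative values, the median log2 ratio over genes whose mean FPKM was 1 or more was subtracted. Symbols were spelled after the mouse reference tables, in which 25503 of 25601 rows matched, and 2 symbols at each time were on 2 rows. The 10 genes, the 7 pathway lists and the 13 marker lists were chosen with earlier results of these data known. Named were the 10 genes, the pathway genes past the fold change at either time (where over 8 of a list were, the 8 with the largest absolute log2 ratio at a mean FPKM of 1 or more), the most abundant gene of each list, markers listed at 0, and the 3 genes nearest to Tgfb1. Which of these were printed was decided after their values were seen, and exceptions to the rule are stated. Some genes are not reported here. The procedures were tested on simulated data. Alternatives were a pseudocount of 0.1, a mean FPKM of at least 1, fold changes of 1.5 and 2 and the subtraction of the median. Scaling to equal totals, the other reading of the genotypes and the lists without the 10 genes were added after the data were seen. Python 3.11.15, numpy 2.4.6, pandas 2.3.3 and matplotlib 3.10.9 were used.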

Additional observations from a re-analysis of the deposited data

Results flagged for a closer look

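Genes whose genotypes differed in opposite directions at the 2 time points are given here. With 1 value per group, none of these differences between time points was tested. Inhba had a log2 ratio of ApoE3 to ApoE4 of 0.43 at 7 dpi, and at 21 dpi it was -0.95. Relative to the median of all genes the values were 0.43 and -0.53. Tgfbi had log2 ratios of -0.26 and 0.47, and relative values of -0.26 and 0.89. Tgfbr2 had relative values of -0.090 at 7 dpi and 0.14 at 21 dpi, both within the fold change, and as deposited it was lower in ApoE3 at both times. Among the named pathway genes outside the 10, for which only differences past the fold change at both times were taken, Ccn2 had relative values of -0.54 at 7 dpi and 0.45 at 21 dpi.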

How the results depend on the processing

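Single mice were not analysed here, so no replicate could be left out, and no interval could be given because FPKM hold no read numbers. No paired analysis was possible because each group has 1 value per gene and the labels carry no replicate numbers. Where a count moved, the cause was not tested, except that a stricter fold change admits fewer genes and the other reading swaps the directions. At 7 dpi, 1 gene was past the fold change with a higher and 2 with a lower value in ApoE3. A fold change of 1.5 gave 0 higher and 1 lower, a fold change of 2 gave 0 and 0, and the reading of genotypes by column number gave 2 and 1. At 21 dpi, 1 was past it on the higher and 6 on the lower side. A fold change of 1.5 gave 0 and 2, a fold change of 2 gave 0 and 0, and the other reading of genotypes gave 6 and 1. Subtraction of the median and scaling to equal totals each left 2 lower. For 21 against 7 dpi in ApoE4, the 5 lower genes became 3 with a fold change of 2 and 8 with equal totals. In the pathway lists, leaving out the 10 genes gave 1 instead of 2 higher genes at 7 dpi, and subtraction of the median gave 15 instead of 5 higher and 7 instead of 40 lower genes at 21 dpi. For single genes of the group, all 34 log2 ratios kept their direction and their side of the fold change with a pseudocount of 0.1. After subtraction of the median, 29 were on the same side, and the 4 that were no longer past it were Tgfb1, Tgfb2, Smad3 and Smad7 between genotypes at 21 dpi. The 1 newly past it was Smad3 between times in ApoE4. Scaling to equal totals left 26 on the same side, with 4 newly past it and 4 no longer. The minimum mean FPKM of 1 removed none of the 10 genes.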
